A study of Mus musculus with 12 samples.

Results

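The nuclear genes for subunits of oxidative phosphorylation (OXPHOS) were followed in ribosome-bound RNA pulled down from the spinal cord through a microglial tag. Members were chosen by symbol alone, as protein-coding genes whose names begin with the roots used for subunits of complexes I to V (Ndufa, Ndufb, Ndufc, Ndufs and Ndufv followed by a digit, Ndufab1, Sdha to Sdhd, Uqcr, Cox4 to Cox8, and Atp5), leaving out pseudogene symbols. The rule found 85 genes among the 39017 gene IDs of the count table: 36 of complex I, 4 of complex II, 8 of complex III, 20 of complex IV and 17 of complex V. Of these, 79 passed the filter on low counts and 6 did not. Spinal cords of female C57BL/6 mice in EAE (experimental autoimmune encephalomyelitis, a model of multiple sclerosis) gave the 12 libraries. All carried Tmem119-Cre and RiboTag, in which Cre tags a ribosomal protein so that ribosome-bound RNA of the Cre-expressing cells can be pulled down. Tmem119 is a microglial gene, and its promoter sets which cells are tagged. The cKO group was 6 libraries labelled Kdm6a cKO (numbers 1 to 6), a conditional knockout of an X-linked histone demethylase, and the WT group was 6 libraries labelled wildtype (numbers 7 to 12). The labels give no age and do not say whether each library came from its own animal, so the p-values here speak only of the variation among libraries, which may be technical.

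Oxidative phosphorylation couples electron transfer to ATP synthesis at the inner mitochondrial membrane. Complex I takes electrons from NADH and complex II from succinate, complex III passes them to cytochrome c, complex IV passes them to oxygen, and complex V, the ATP synthase, uses the resulting proton gradient. Complexes I, III, IV and V combine subunits of nuclear and mitochondrial genes, while complex II is nuclear only, and several small complex IV subunits have a muscle, testis or hypoxia-linked isoform beside the ubiquitous one. Microglia, the resident macrophages of the central nervous system, are known to shift between oxidative and glycolytic metabolism with their activation state.

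The libraries held 19040115 to 26296071 counts, at which 3 counts equalled 0.109 to 0.157 CPM (counts relative to the scaled library total). Intervals and floors of this kind cover counting error only. Kdm6a itself was low in both groups, at 1.59, 2.81 and 4.50 CPM (lowest, median and highest) in the cKO libraries and 3.35, 4.29 and 6.19 CPM in the WT libraries. The groups overlapped and the log2 fold change of -0.70 ± 0.25 (SE) did not pass the test (edgeR adjusted p = 0.117). It passed in 6 of 24 alternative fits, among them those with the length offset (-0.82, edgeR adjusted p = 0.0182), with the covariate of central nervous system markers (-1.26, edgeR adjusted p = 0.00109) and without cKO 1, cKO 2 and cKO 4 (-1.17, edgeR adjusted p = 0.0227), and was below 0 in all of them. The marker covariate itself differed between the groups, with means of 0.52 in cKO and -0.52 in WT. The table counts whole genes, so it does not separate the part of Kdm6a that the Cre removes. All 13 microglial markers were detected. Their summed level was 41408 to 57447 CPM in the cKO libraries and 43688 to 50180 CPM in the WT libraries. The sum does not show the level of each marker. Their median log2 deviation from the WT mean was -0.45 in cKO 5 and 0.76 in cKO 2. The 16 neuronal markers summed to 1038, 866 and 698 CPM in cKO 2, cKO 1 and cKO 4 and to at most 465 CPM in every other library. The 8 oligodendrocyte markers summed to a mean of 2151 CPM in cKO and 2190 CPM in WT. For the 8 astrocyte markers the means were 535 and 480 CPM. RNA of other cells was thus present, and its share in the members was not tested. In such bulk samples fewer cells of a type and less RNA per cell cannot be told apart.

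With all 12 libraries in the fit, few nuclear OXPHOS genes were called between cKO and WT. In the edgeR quasi-likelihood test across 15015 genes, with a Benjamini-Hochberg adjusted p under 0.05, 1 member of the 79 tested (Atp5g1, a gene for the c subunit of the ATP synthase) was higher in cKO and 0 were lower. The remaining 78 did not pass, and 5 members had an unadjusted p under 0.05. Over all genes tested, 2.44% were called higher, 3.43% lower and 5.87% in either direction. The median log2 fold change of the members was 0.01, beside 0.03 for all genes, with 43 members above 0 and 36 below. That median moved to -0.23 without cKO 5 and to 0.35 without cKO 1, cKO 2 and cKO 4. For 75 of the 79 the size of the log2 fold change was under 0.3. The median standard error was 0.21. At that error a log2 fold change of 0.3 in a single member could not be told from 0. No member separated the 6 cKO from the 6 WT libraries without overlap, against 620 of all genes (4.13%).

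**Figure D1:**
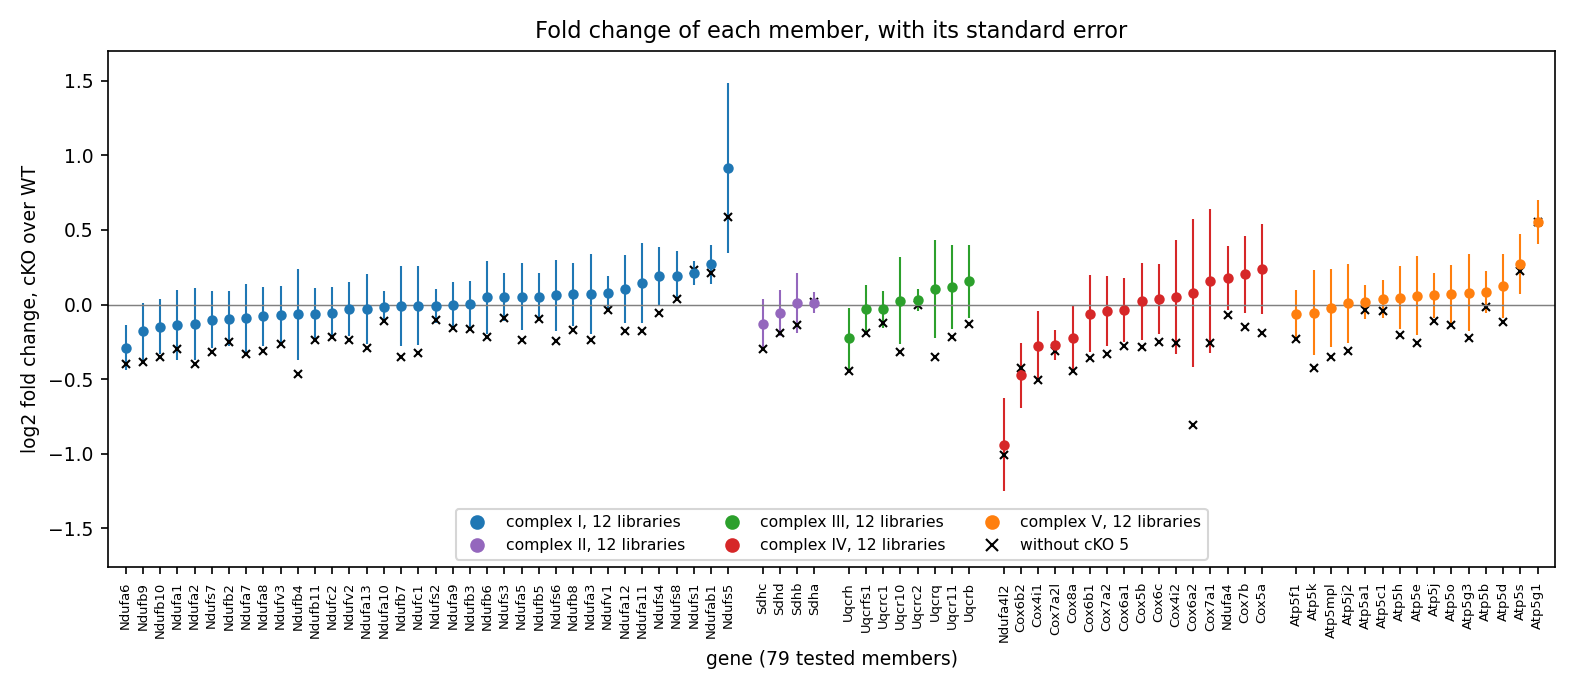
Log2 fold change of cKO over WT for each of the 79 tested members, grouped by complex and sorted within it, with all 12 libraries (coloured points, bars are the standard error of the edgeR fit) and without cKO 5 (crosses). Most points lie within 0.3 of 0, and most crosses lie below their point, with a median of -0.23 in place of 0.01.

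Complex I takes electrons from NADH at its matrix arm and hands them to quinone. None of its 36 genes passed the test, and their median log2 fold change was -0.01, with 16 above 0 and 20 below. The N module, which binds NADH, had a median of 0.07 over 8 genes, the Q module at the quinone site -0.01 over 8 genes, and the membrane arm -0.01 over 20 genes. Levels set between genes are given per kb of mRNA, as the mean of the WT libraries. The most abundant complex I gene was Ndufb8, an accessory subunit of the membrane arm, at 190 CPM per kb, and the lowest was Ndufb4, another accessory subunit, at 4.07 CPM per kb.

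Ndufs1, the largest core subunit and an iron-sulfur protein of the N module, had the smallest p of complex I. It ran at 33.1, 34.7 and 40.9 CPM (lowest, median and highest) in the cKO libraries and 29.2, 30.1 and 33.3 CPM in the WT libraries. All but WT 10 lay below the lowest cKO library, and the groups overlapped by that library alone. Its log2 fold change was 0.21 ± 0.08 (edgeR adjusted p = 0.124). It was among the few members that were not raised in cKO 5, where it stood at 1.08 times the WT mean.

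Ndufa6, an accessory subunit of the Q module, ran at 44.4, 69.4 and 91.0 CPM in the cKO libraries and 66.7, 80.6 and 94.1 CPM in the WT libraries. The cKO range covered the WT range nearly whole. The log2 fold change was -0.29 ± 0.15 (edgeR adjusted p = 0.269). Ndufab1, the mitochondrial acyl carrier protein, had a log2 fold change of 0.27 ± 0.13 (edgeR adjusted p = 0.239) at a level of 7.61 ± 1.06 CPM in cKO and 6.32 ± 0.847 CPM in WT (± SD, 6 libraries each).

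Ndufs5, an accessory subunit of the membrane arm, had the highest log2 fold change of all members, 0.92 ± 0.57, with an edgeR adjusted p of 0.365. Its counts were erratic: 2 in WT 10 against 60 to 188 in the other WT libraries, and 71 to 369 in the cKO libraries. Its near-identical copy BC002163, a processed pseudogene, held more counts than Ndufs5 itself, at 20.3 ± 8.84 CPM in cKO and 25.8 ± 4.08 CPM in WT. Summed over both genes, the level was 27.6 ± 12.7 CPM in cKO and 29.6 ± 1.99 CPM in WT (± SD, 6 libraries each), so the separate value of Ndufs5 is uncertain.

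Complex II, succinate dehydrogenase, also belongs to the citric acid cycle. None of its 4 genes passed, and their median log2 fold change was -0.02. Sdha, the flavoprotein that oxidises succinate, ran at 233, 240 and 246 CPM in the cKO libraries and 228, 237 and 252 CPM in the WT libraries. It varied least of all tested members across the 12 libraries, cKO 5 and cKO 2 included, where it stood at 0.98 and 1.01 times the WT mean. Its log2 fold change was 0.01 ± 0.07 (edgeR adjusted p = 0.939). Its partner Sdhb, the iron-sulfur subunit, had the same log2 fold change of 0.01 but an SE of 0.20, with 88.9 CPM in cKO 2 and 231 CPM in cKO 5 against 135 to 184 CPM in WT. The cytochrome b anchors Sdhc and Sdhd had log2 fold changes of -0.13 ± 0.17 and -0.06 ± 0.15, neither past the test (edgeR adjusted p = 0.710 and 0.875).

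Complex III moves electrons from quinol to cytochrome c. None of its 8 genes passed, with a median log2 fold change of 0.03. The core proteins Uqcrc1 and Uqcrc2 had log2 fold changes of -0.03 ± 0.12 and 0.03 ± 0.08, and the catalytic Rieske protein Uqcrfs1 of -0.03 ± 0.16. The small subunits were less even between libraries. Uqcrq, the most abundant complex III gene at 305 CPM per kb, ran at 57.5, 96.0 and 311 CPM in the cKO libraries and 92.7, 125 and 144 CPM in the WT libraries. The cKO libraries thus lay on both sides of the WT range, cKO 5 far above it, cKO 6 just above it and cKO 1, 2 and 4 below it. Its log2 fold change was 0.10 ± 0.33 (edgeR adjusted p = 0.893). The hinge protein Uqcrh had a log2 fold change of -0.23 ± 0.21 (edgeR adjusted p = 0.562).

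Complex IV, cytochrome c oxidase, reduces oxygen. None of its 16 tested genes passed, with a median log2 fold change of -0.01, and 4 of its 20 genes (Cox7b2, Cox7c, Cox8b and Cox8c) were too low to test. Cox4i1, the ubiquitous isoform of subunit 4, was the most abundant member of any complex at 640 CPM per kb. It ran at 207, 375 and 687 CPM in the cKO libraries and 394, 488 and 517 CPM in the WT libraries. The highest cKO library was cKO 5, and cKO 2, 4 and 1 lay below every WT library. The log2 fold change was -0.28 ± 0.23 (edgeR adjusted p = 0.527).

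Cox7a2l, a relative of Cox7a2 that has been linked to supercomplexes of complexes III and IV, behaved differently from its neighbours. It ran at 70.5, 83.4 and 92.0 CPM in the cKO libraries and 86.7, 98.8 and 112 CPM in the WT libraries. Its highest cKO library, cKO 5, reached only 0.93 times the WT mean, and cKO 5 and WT 8, 9 and 10 overlapped. The log2 fold change was -0.27 ± 0.10 (edgeR adjusted p = 0.117). Without cKO 5 it passed the test at -0.31 (edgeR adjusted p = 0.042).

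Ndufa4 was first assigned to complex I and is now counted with complex IV, and Ndufa4l2 is its hypoxia-induced paralog. Ndufa4 ran at 32.9, 51.4 and 103 CPM in the cKO libraries and 43.9, 50.5 and 56.7 CPM in the WT libraries, a log2 fold change of 0.18 ± 0.21 (edgeR adjusted p = 0.678). Ndufa4l2 ran at 0.717, 1.30 and 2.33 CPM in the cKO libraries and 1.24, 2.64 and 3.79 CPM in the WT libraries. All WT libraries but WT 10 and WT 11 lay above the highest cKO library. With -0.94 ± 0.31 it had the lowest log2 fold change of all members, without passing the test (edgeR adjusted p = 0.0915). Its exons overlap those of Shmt2 on the other strand, and the strand setting of the counting is not given in the sources used here. Shmt2, a mitochondrial enzyme of serine metabolism, stood at 77.2 ± 35.5 CPM in cKO and 70.4 ± 20.5 CPM in WT, a log2 fold change of 0.13 ± 0.26 (edgeR adjusted p = 0.816).

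In each isoform pair of complex IV the ubiquitous gene carried nearly all transcripts, with Cox6a2 as the exception. Per kb of mRNA, the WT share of the less common gene was 0.117% ± 0.0535 for Cox4i2 (subunit 4), 1.03% ± 0.295 for Cox6b2 (a testis isoform), 1.19% ± 0.634 for Cox7a1 (a muscle and heart isoform) and 0.0169% ± 0.0415 for Cox8b (± SD, 6 libraries each). Cox7b2 was at 0.0921% ± 0.150 of its pair with Cox7b, and Cox8c had 0 counts in every library. Cox6a2, the muscle and heart isoform of subunit 6a, held 15.1% ± 2.34 of its pair with Cox6a1 in WT and 13.5% ± 6.64 in cKO. For 8 pairs, including Ndufa4l2 with Ndufa4 and Atp5g1 with Atp5g3, the share was compared between groups with a two-sided exact permutation test over the 924 assignments of libraries. The smallest p was 0.0260 for Ndufa4l2, at 1.69% ± 0.785 in cKO and 3.28% ± 1.16 in WT, which was 0.208 after Benjamini-Hochberg adjustment over the pairs.

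Among the members with a WT mean of 10 CPM or more, Cox6a2 varied most between the 12 libraries on the log2 scale. Its levels were 22.5, 14.7, 33.0, 28.1, 174 and 46.3 CPM in cKO 1 to 6 and 44.5, 67.5, 54.4, 31.3, 52.5 and 52.2 CPM in WT 7 to 12. The library cKO 5 stood at 3.46 times the WT mean, while cKO 1, 2 and 4 lay below all WT libraries. With all libraries the log2 fold change was 0.08 ± 0.49 (edgeR adjusted p = 0.951). Without cKO 5 the direction turned and the gene passed the test by a narrow margin, at -0.81 ± 0.26 (edgeR adjusted p = 0.0499). The 10 striated muscle markers summed to 17.1 CPM in cKO 5, within the 8.27 to 19.4 CPM of the cKO libraries and below the 19.8 to 25.8 CPM of the WT libraries. Most of that sum was Tnni2, a fast-muscle troponin, which was called lower in cKO at 11.5 ± 3.55 against 20.4 ± 2.44 CPM (log2 fold change -0.83 ± 0.19, edgeR adjusted p = 0.0195). Of the 3 muscle markers tested, Tnni2 included, 2 had a log2 fold change above 0 and 1 below, with a median of 0.25. In cKO 5 the median log2 deviation of these 3 from the WT mean was 0.52. The sum therefore does not show the direction of each marker. The myosin genes Myh1 and Myh4 had mean levels of at most 0.02 CPM in either group. Cox6a2 shares exon sequence with Itgad on the other strand, and Itgad ran at 0.206 to 1.39 CPM.

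Complex V, the ATP synthase, turns the proton gradient into ATP. Of its 15 tested genes 12 had a log2 fold change above 0, with a median of 0.06, and only Atp5g1 passed. Atp5b, the catalytic beta subunit of the F1 head, was its most abundant gene at 416 CPM per kb and ran at 652, 797 and 1118 CPM in the cKO libraries and 690, 766 and 950 CPM in the WT libraries. The groups overlapped over nearly their whole range, and the log2 fold change was 0.08 ± 0.14 (edgeR adjusted p = 0.789). Atp5d, the delta subunit of the stalk, had a log2 fold change of 0.12 ± 0.22 (edgeR adjusted p = 0.794). Atp5s, an associated factor that is not a structural subunit, was low at 2.57 ± 0.712 CPM in cKO and 2.12 ± 0.317 CPM in WT.

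The c ring that turns with proton flow is made from a peptide encoded by 3 genes, Atp5g1, Atp5g2 and Atp5g3, whose mature product is the same. In the table most counts of the 3 were assigned to Atp5g3, at 141 ± 72.9 CPM in cKO and 134 ± 15.3 CPM in WT (± SD, 6 libraries each). Atp5g1 had 3.57, 5.26, 4.13, 4.56, 4.42 and 4.94 CPM in cKO 1 to 6 and 3.13, 3.08, 2.88, 3.90, 2.86 and 2.49 CPM in WT 7 to 12. Only cKO 1 lay below the highest WT library, WT 10. The log2 fold change was 0.55 ± 0.15 (edgeR adjusted p = 0.0421). The call was lost in 8 of the 12 fits that left out 1 library, with an adjusted p of 0.0264 to 0.106. Of the 50-base words of Atp5g1 mRNA, 66.0% also occur in other genes, mainly the processed pseudogene Gm10039. Summed over Atp5g1 and its 3 copies the level was 44.5 ± 19.7 CPM in cKO and 36.6 ± 4.61 CPM in WT, and how the counting divided these reads is not given in the sources used here.

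**Figure D2:**
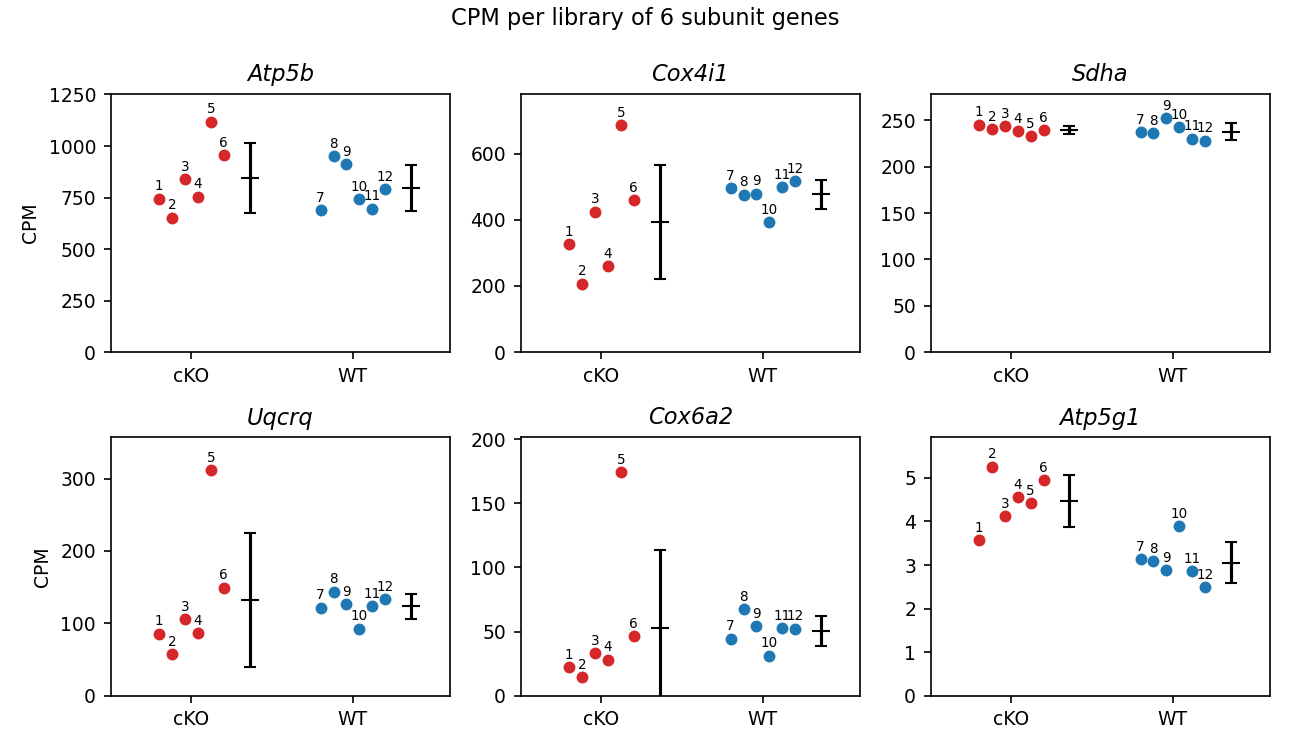
CPM in each library for 6 members (numbers are library numbers, the black mark and bar are the mean and SD of the group, n = 6). Sdha is level at 228 to 252 CPM, Atp5b, Cox4i1, Uqcrq and Cox6a2 are highest in cKO 5, and Atp5g1 lies higher in cKO with 1 cKO library below WT 10.

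Members differed more between libraries than between groups. In cKO 5, 71 of the 79 tested members had their highest level of all 12 libraries, and in cKO 2, 67 had their lowest. Over all genes tested cKO 5 was highest for 22.9% and cKO 2 lowest for 20.9%. The log2 deviation of a gene in a library is taken here from the WT mean, as log2(CPM + 0.5). Its median over the members was 0.70 in cKO 5 and -0.70 in cKO 2, with -0.26, -0.05, -0.35 and 0.15 in cKO 1, 3, 4 and 6. The WT libraries ran from -0.20 in WT 10 to 0.09 in WT 8. Of the members, 73 lay above the whole WT range in cKO 5 and 41 in cKO 6, while 69 lay below it in cKO 2, 57 in cKO 4 and 48 in cKO 1. Of all genes tested, 29.5% lay above the WT range in cKO 5 and 21.0% in cKO 6, and 32.4%, 27.4% and 26.01% lay below it in cKO 2, cKO 4 and cKO 1. In share of all counts the members made up 1.26% of cKO 5 and 0.623% of cKO 2, and 0.673% to 0.793% of the WT libraries. The mean was 0.820% ± 0.226 in cKO and 0.735% ± 0.0406 in WT (± SD, 6 libraries each), and 0.732% ± 0.0786 in cKO without cKO 5 (n = 5).

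All 5 complexes moved together in these libraries. In cKO 5 the median deviation was 0.68 for complex I, 0.49 for II, 0.81 for III, 0.88 for IV and 0.80 for V. In cKO 2 it was -0.74, -0.62, -0.80, -0.85 and -0.66 in the same order. The members that did not follow were few. Sdha, Ndufs1 and Cox7a2l stood within 0.93 to 1.08 times the WT mean in cKO 5. Cox6b2 and Ndufa4l2, both at about 1 to 3 CPM, stood at 0.59 and 0.64 times in cKO 5. In cKO 2, 3 members had their highest level of all 12 libraries. These were Atp5g1, the called member (1.72 times the WT mean), Atp5s (1.67 times) and Ndufs1 (1.34 times). The strongest rises in cKO 5 among members at 10 CPM or more were those of Cox6a2 (3.46 times), Cox5a, an oxidase subunit facing the catalytic core (2.67 times), and Uqcrq (2.52 times).

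The spread was wider between cKO than between WT libraries. The median SD of log2 CPM over the members was 0.52 in cKO and 0.14 in WT, and 0.35 in cKO without cKO 5. Over all genes tested it was 0.32 in cKO and 0.19 in WT. The cKO spread exceeded the WT spread for 72 members (91.1%) and for 81.4% of all genes.

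**Figure D3:**
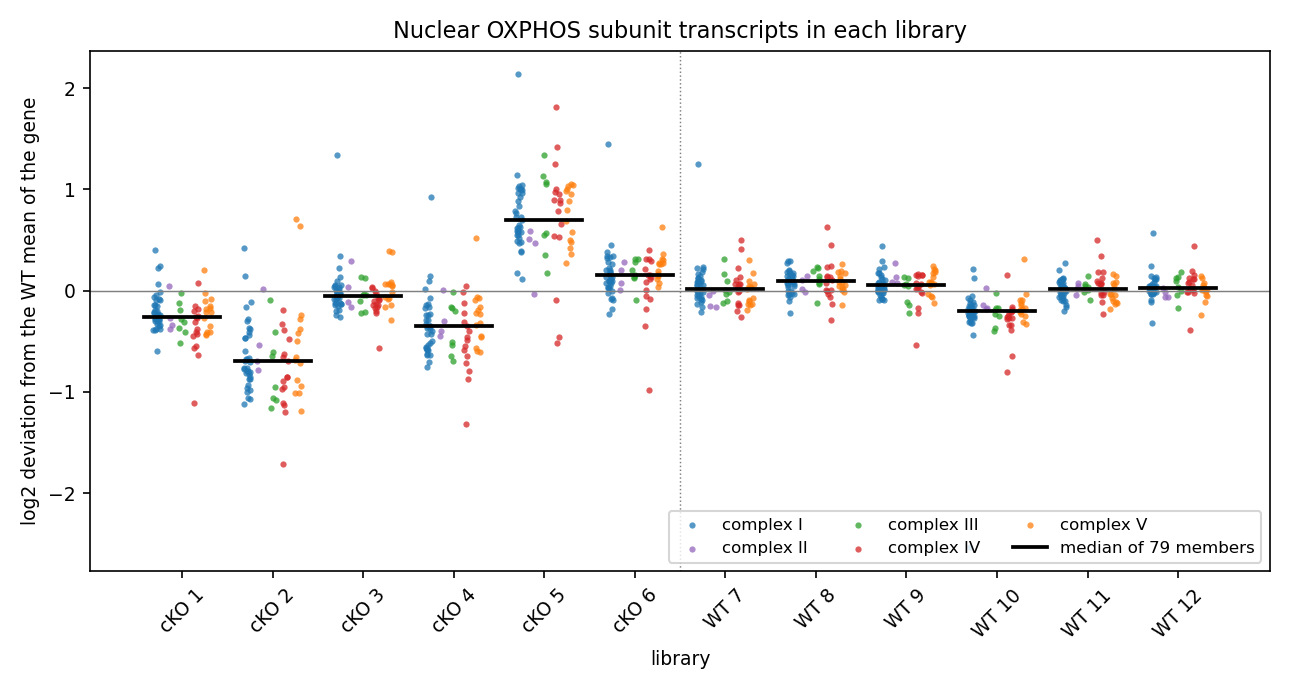
Log2 deviation of each of the 79 tested members from its WT mean, by library and complex (points), with the median of the members as a black line. The median is 0.70 in cKO 5 and -0.70 in cKO 2, and lies within -0.20 to 0.09 in the WT libraries.

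The members have short mRNAs, and the deviations moved with mRNA length over all tested protein-coding genes. The median length of the main transcript was 763 bases for the tested members and 2866 for the 13124 tested protein-coding genes. Among all tested protein-coding genes of up to 750 bases the median deviation was 0.47 in cKO 5 and -0.69 in cKO 2. Among those of 1501 to 2000 bases it was 0.12 and -0.18. Members of up to 750 bases (38 genes) had medians of 0.90 in cKO 5 and -0.87 in cKO 2, and those of 1501 to 2000 bases (9 genes) 0.52 and -0.38. In each of the 4 bins with at least 9 members, the members were farther from WT than the protein-coding genes of that length in both libraries. With the trend on length in each library taken out, the median deviation of the members was 0.47 in cKO 5 and -0.32 in cKO 2. The trend was not limited to cKO libraries. In WT 10 the protein-coding genes had medians of -0.19 up to 750 bases and -0.07 at 1501 to 2000 bases. What part length has in the pattern beyond these values was not tested. The low libraries cKO 1, cKO 2 and cKO 4 were also those with the highest neuronal marker sums, and the part of neuronal or glial RNA in the result was not tested. The neuronal marker sum of cKO 5, 369 CPM, lay within the 311 to 443 CPM of the WT libraries.

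**Figure D4:**
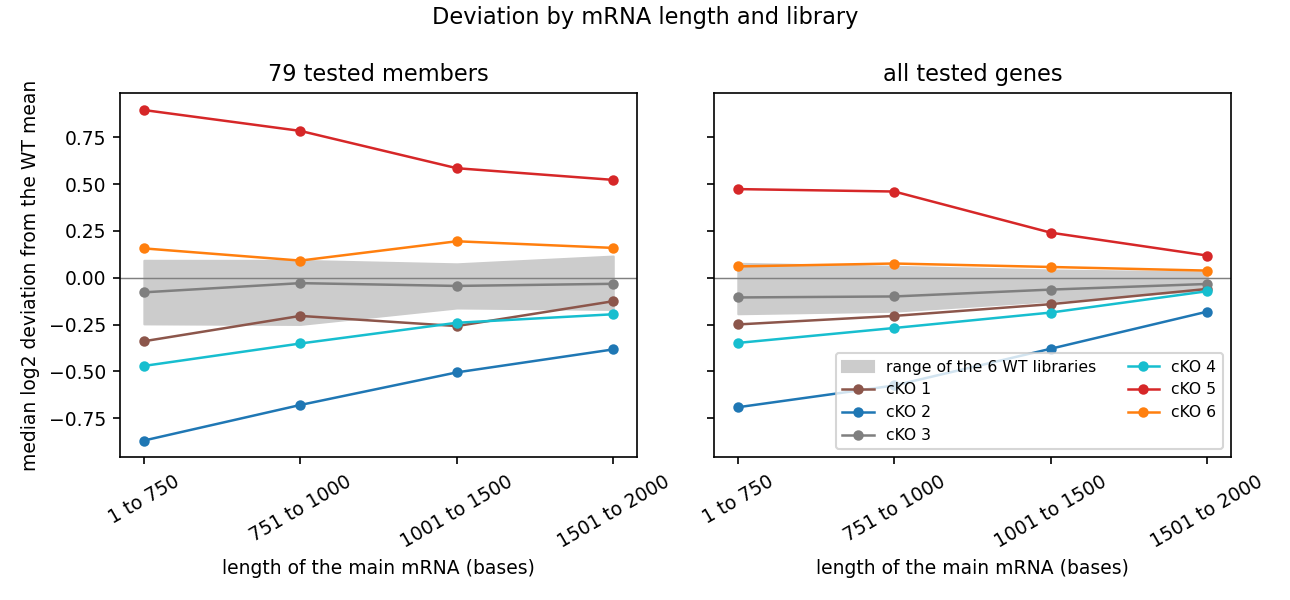
Median log2 deviation from the WT mean by length of the main mRNA in bases. The left panel shows those of the 79 tested members that fall in bins with at least 9 members. The right panel shows all tested protein-coding genes of these bins. Each cKO library has 1 line, and the range of the 6 WT libraries is in grey. In the shortest bin cKO 5 is at 0.90 for members and 0.47 for the protein-coding genes, and cKO 2 at -0.87 and -0.69.

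The group comparison therefore rested on which cKO libraries entered it. Without cKO 5 the median log2 fold change of the members was -0.23, with -0.24, -0.16, -0.20, -0.30 and -0.14 in complexes I to V. Then 3 members were called lower (Ndufa6, Cox7a2l and Cox6a2), against 7.82% of all genes, and 1 higher (Atp5g1), against 10.8%. Without cKO 1, cKO 2 and cKO 4 the median was 0.35. With the length trend as an offset it was 0.02, and Atp5g1 alone was called, against 8.42% of all genes in either direction. Other methods gave other counts on the same libraries. DESeq2 called 3 members (Atp5g1 and Ndufs1 higher and Ndufa4l2 lower), against 12.3% of all genes. With limma-voom and sample weights, which give less weight to libraries that stand apart, 18 members were lower, against 14.2%, and 2 were higher, against 16.7%, and the median of the members was -0.27. With a component of neuronal, glial and vascular markers as a covariate, 6 members were higher (Cox5a, Ndufa11, Sdhb, Atp5g3, Atp5o and Ndufs8), against 3.29%, and the median was 0.32. That component averaged 0.52 in cKO and -0.52 in WT and was highest in cKO 1, cKO 2 and cKO 4. It is thus partly confounded with the group. With 1 surrogate variable 3 members were higher (Cox5a, Atp5g1 and Ndufs8), against 8.12%.

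Levels within a complex differed far more than the groups did. The WT medians over tested genes were 58.4 CPM per kb for complex I, 130 for III, 87.9 for IV and 99.2 for V, and the 4 genes of complex II lay between 53.4 and 135. The low end held tissue isoforms and genes with near-identical copies. Of the 85 members, 38 shared none of their 50-base words with another gene and had a median of 92.7 CPM per kb in WT. The 26 that shared up to 20% had a median of 87.0, the 15 that shared more than 20% and up to 50% had 39.7, and the 6 that shared more than 50% had 2.79. Cox7c, a ubiquitous oxidase subunit, was listed at 0.428 ± 0.165 CPM in cKO and 0.241 ± 0.179 CPM in WT with 53.0% of its words shared, and its copies, mainly the pseudogene Gm12338, held 4.56 ± 2.75 and 4.36 ± 0.675 CPM. Atp5l, the g subunit of the ATP synthase, stood at no more than 0.155 CPM in any library with 84.8% shared. Atp5g2 stood at no more than 0.148 CPM with 100% shared. For these genes a low count does not show a low transcript level. Uqcrb (43.4% shared), Ndufb4 (37.0%) and Ndufab1 (31.2%) are uncertain too, but they are not alike. The copies of Ndufb4 held 0 CPM in WT and 0.00791 CPM in cKO. Ndufab1 shares words with 11 genes, which include protein-coding genes such as Cep170.

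**Figure D5:**
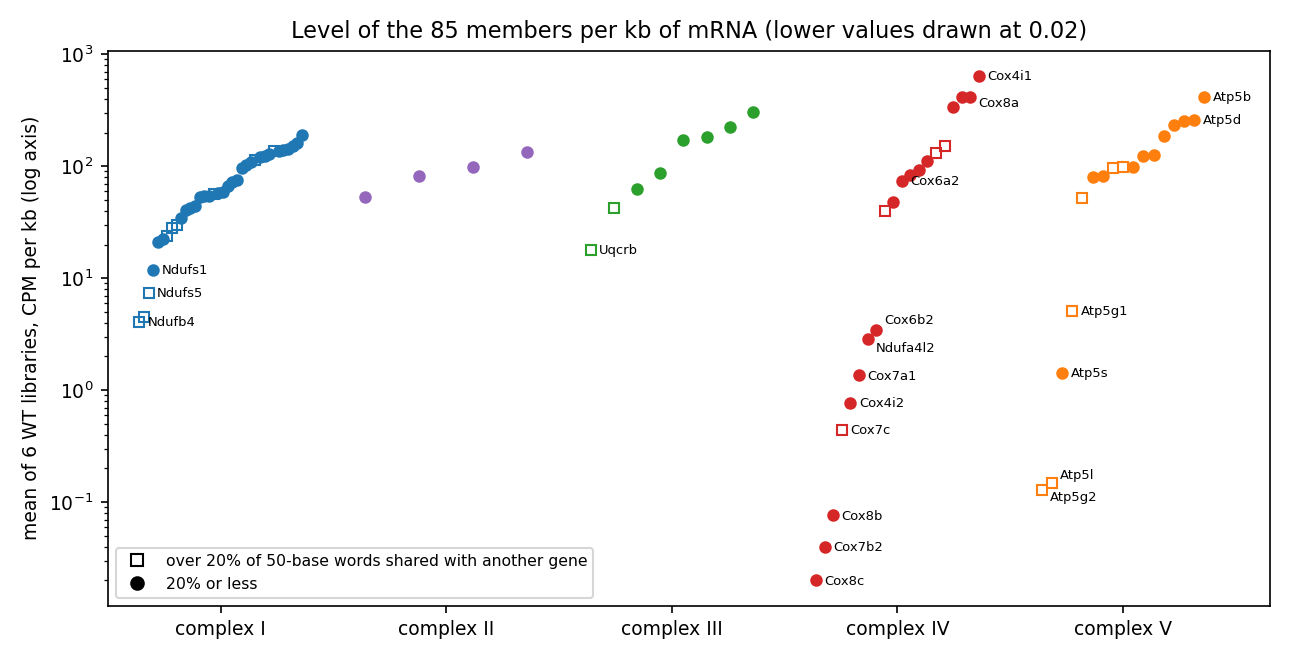
Mean level of the 85 members in the 6 WT libraries, in CPM per kb of mRNA on a log axis, by complex. Open squares mark members that share over 20% of their 50-base words with another gene; Cox4i1 is highest at 640 CPM per kb and Cox8c had 0 counts.

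The promoters of the members were also searched for motifs. Whether a motif goes with the deviations between libraries was not tested. RefSeq windows of 300 bases (250 before to 50 after the transcription start, build GRCm38.p6) matched 69 members, and 16 members are not analysed here in this respect. The motifs searched on both strands were GCGCATGCG for NRF1, CCGGAAG for ETS factors such as GABP and AAGATGGCG for YY1, which are known regulators of respiratory genes in mammals, with GGGCGG for Sp1 and TATAAA for the TATA box. The NRF1 motif was in 11.6% of member windows (8) and in 2.35% of all 21263 windows. The latter cover protein-coding genes whether or not they are expressed here. The ETS motif was in 21.7% (15) against 11.6%, and the YY1 motif in 8.70% (6) against 1.83%. The Sp1 motif was in 29 member windows against 46.2% of all, and the TATA box in 10.1% against 12.6%. All 6 YY1 matches began 23 to 36 bases after the start, where 1.09% of all windows held a match. The letters of this motif include ATG, and whether these matches lie at a start codon was not tested. At least 1 of NRF1, ETS and YY1 was in 25 members (36.2%) and in 14.8% of all windows. A match describes letters and is not a measured binding site.

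The windows below show an NRF1 with an ETS match (Uqcr11), a YY1 match just after the start (Ndufs7), a pair of ETS matches (Cox8a) and the window of the member that was called, which held none of these motifs (Atp5g1). Capitals mark matches to NRF1, ETS or YY1 on either strand, and each run reads from upstream to downstream on the strand of the gene.
Uqcr11, chr10:80406772-80407071, minus strand: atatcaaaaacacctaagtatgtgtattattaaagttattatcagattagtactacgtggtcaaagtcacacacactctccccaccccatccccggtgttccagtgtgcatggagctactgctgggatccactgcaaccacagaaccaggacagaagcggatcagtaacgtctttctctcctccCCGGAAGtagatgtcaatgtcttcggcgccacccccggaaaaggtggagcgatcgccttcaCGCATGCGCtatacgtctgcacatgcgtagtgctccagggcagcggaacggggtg
Ndufs7, chr10:80249199-80249498, plus strand: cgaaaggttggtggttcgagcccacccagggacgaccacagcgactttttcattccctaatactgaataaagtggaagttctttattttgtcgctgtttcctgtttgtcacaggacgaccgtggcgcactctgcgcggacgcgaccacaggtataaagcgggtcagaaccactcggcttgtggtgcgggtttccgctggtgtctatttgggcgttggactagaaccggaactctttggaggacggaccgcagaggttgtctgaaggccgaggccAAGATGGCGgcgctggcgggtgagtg
Cox8a, chr19:7217567-7217866, minus strand: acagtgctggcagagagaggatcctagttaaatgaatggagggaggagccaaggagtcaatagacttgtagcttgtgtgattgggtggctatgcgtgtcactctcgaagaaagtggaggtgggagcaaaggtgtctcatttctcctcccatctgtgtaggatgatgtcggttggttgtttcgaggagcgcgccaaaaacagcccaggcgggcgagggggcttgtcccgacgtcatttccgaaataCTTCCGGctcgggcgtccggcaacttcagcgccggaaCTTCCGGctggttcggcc
Atp5g1, chr11:96075582-96075881, minus strand: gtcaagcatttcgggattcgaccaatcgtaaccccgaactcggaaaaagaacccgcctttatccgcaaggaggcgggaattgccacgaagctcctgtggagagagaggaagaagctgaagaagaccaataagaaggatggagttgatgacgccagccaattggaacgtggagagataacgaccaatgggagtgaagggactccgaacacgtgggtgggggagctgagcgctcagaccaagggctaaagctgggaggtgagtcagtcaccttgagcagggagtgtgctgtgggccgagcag
Uqcr11, Ndufs7 and Cox8a, which carry a motif, had log2 fold changes of 0.11 ± 0.28, -0.10 ± 0.19 and -0.22 ± 0.22, and none passed the test (edgeR adjusted p = 0.862, 0.816 and 0.590). In cKO 5 they stood at 2.19, 1.57 and 1.45 times the WT mean, while Atp5g1 stood at 1.45 times. Of 16 transcription factors and coactivators of respiration, among them Nrf1, Gabpa and Yy1, none passed the test in the comparison of the groups. Their median log2 fold change was -0.01 and their median deviation -0.13 in cKO 5 and 0.06 in cKO 2, with a median mRNA length of 3706 bases.

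The mitochondrial genome encodes the remaining subunits, and its genes did not follow the nuclear ones. Its transcripts are read by mitochondrial ribosomes, and whether their counts come from the tagged cells was not tested. Of its 13 protein genes 7 were tested, 0 were called, and all 7 had a log2 fold change above 0, with a median of 0.22. Their median deviation was -0.21 in cKO 5 and 0.73 in cKO 2, opposite in sign to that of the nuclear members in both libraries. The other genes were mt-Nd3, too low to test, and 5 (mt-Nd4l, mt-Co2, mt-Co3, mt-Atp6 and mt-Atp8) with 0 counts in every library. For these the level cannot be read from this table. All genes of the mitochondrial chromosome together held 0.0987% ± 0.0380 of the counts in cKO and 0.0720% ± 0.00961 in WT (± SD, 6 libraries each), a difference that did not pass a two-sided exact permutation test (p = 0.149 over 924 assignments). The highest shares were 0.148% in cKO 1 and 0.143% in cKO 2. The difference of 0.0268 percentage points was 0.00348 without both of them and -0.00374 when cKO 4 was left out too, and passed the same exact permutation test (p = 0.0455) without cKO 6.

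Genes around the complexes gave few calls, where 5.87% of all genes tested were called in either direction. In lists this short, 0 calls shows little beside that share. None of the 18 tested assembly factors of complex I, 4 of complex II, 7 of complex III, 23 of complex IV and 4 of complex V was called, with medians of 0.01, -0.06, -0.01, -0.09 and -0.05. The 23 genes of mitochondrial import and the outer membrane gave 0 calls, with a median of 0.04. Among 8 tested carriers and further subunits outside the symbol rule none was called. In that list AA467197, the mouse counterpart of human C15orf48 and a relative of Ndufa4, stood at 18.7 ± 29.8 CPM in cKO and 6.45 ± 4.18 CPM in WT, with cKO 5 at 12.2 times the WT mean (log2 fold change 1.54 ± 0.80, edgeR adjusted p = 0.268).

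Of 19 genes of the citric acid cycle, which feeds NADH and succinate to complexes I and II, 2 rose and 0 fell, where 2.44% of all genes rose and 3.43% fell. Idh2, the NADP-dependent mitochondrial isocitrate dehydrogenase, stood at 94.0 ± 5.44 CPM in cKO and 61.0 ± 6.09 CPM in WT. The groups did not overlap, and the log2 fold change was 0.62 ± 0.08 (edgeR adjusted p = 0.000808). The call held in all 25 alternatives. Idh3a, a subunit of the NAD-dependent enzyme, stood at 32.7 ± 2.04 CPM in cKO and 25.8 ± 2.73 CPM in WT, also without overlap (log2 fold change 0.34 ± 0.09, edgeR adjusted p = 0.0393). That call was lost in 14 of 25 alternatives. Of 17 genes of glycolysis only Pfkm, a phosphofructokinase, rose, at 38.1 ± 9.46 against 25.2 ± 1.34 CPM (log2 fold change 0.60 ± 0.15, edgeR adjusted p = 0.0316). It was highest in cKO 1 and cKO 2, its groups overlapped, and its call was lost in 12 of 25 alternatives. In the marker lists of other cells, Siglech (microglia), Uchl1 (neurons), Notch3 (mural cells) and Ighm (B cells) were called higher and Tnni2 (striated muscle) lower, and no other tested marker was called. The calls of Notch3 and Tnni2 were lost in 10 of 24 and 2 of 25 alternatives. All 16 neuronal markers had a log2 fold change above 0, with a median of 0.79, and all 6 fibroblast markers one below 0, with a median of -0.81.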

How the data were processed

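Ribosome-bound RNA of 12 libraries was sequenced. Per the labels' protocols, a Direct-zol kit was used for extraction and a stranded KAPA kit with mRNA enrichment for library preparation, and per the submitters' processing notes bcl2fastq 2.17, FastQC, Trimmomatic and the mm10 build were used. Which aligner, counter, strand option and gene annotation were used is not given in the sources used here. Raw counts were deposited by the authors per Ensembl gene ID, and 37607 IDs matched a GENCODE symbol.

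Counts were tested with edgeR 4.0.16 in R 4.3.3 (TMM scaling, filterByExpr, robust quasi-likelihood test, cKO against WT), with Benjamini-Hochberg adjustment over all 15015 genes and a threshold of 0.05. CPM values use TMM-scaled totals, deviations are log2 of CPM plus 0.5 less the WT mean, and standard errors come from the fold change and the F statistic. Lengths, overlaps and shared 50-base words come from GENCODE transcripts, and promoter windows from RefSeq. Isoform shares were compared by exact permutation. Alternatives used DESeq2 1.42.0, limma 3.58.1 and sva 3.50.0, other filters and scalings, covariates, a length offset and fits without libraries. The fits were tested on simulated data. Other steps used Python 3.11.15 with pandas 2.3.3, numpy 2.4.6, scipy 1.17.1 and matplotlib 3.10.9.

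The members and gene lists were chosen with earlier results of these data known. Genes were named by rule: members past the threshold, the 4 with the smallest p and the highest and lowest level in each complex, isoform groups, up to 6 called genes of each other list, and Kdm6a. Other genes were named for their position beside a member or their values.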

Additional observations from a re-analysis of the deposited data

Results flagged for a closer look

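Of 96 groups of 6 libraries examined, 13 held 1 library whose gap to the nearest other exceeded the 95% critical value of Dixon's test, and chance flags about 1 in 20. The library cKO 5 stood apart on the high side in 7 of them. These were the members' share of counts (1.26%), Ndufb4 (8.27 CPM), Uqcrb (20.05 CPM), Uqcrq (311 CPM), Cox4i2 (1.11 CPM), Cox6a2 (174 CPM) and Cox7b (115 CPM). WT 10 stood apart on the low side for Cox4i1 (394 CPM), Cox6b1 (171 CPM) and Cox8a (192 CPM). Ndufs1 stood apart in cKO 2 (40.9 CPM). For Cox7b2 in cKO 3 (0.0475 CPM) and Cox8b in WT 7 (0.165 CPM) the levels were at or near the floor of 3 counts.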

How the results depend on the processing

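Over all genes 882 were called in the reported fit, and 1843 with DESeq2, 4638 with limma-voom and sample weights, 2385 with 1 surrogate variable, 416 without cKO 1 and cKO 2, 557 without cKO 1, cKO 2 and cKO 4, 1372 leaving out cKO 2 together with cKO 5, and 2794 using the length offset without cKO 5. The last 2 and the plain length offset were chosen after seeing the data. Members called higher numbered 2 with DESeq2, 2 with limma-voom, 6 with the marker covariate, 3 with 1 surrogate variable, and 0 with no filter, with a mean of at least 5 CPM, without cKO 1 and cKO 2, without cKO 1, cKO 2 and cKO 4, and leaving out cKO 2 together with cKO 5. Members called lower numbered 1 with DESeq2, 18 with limma-voom and 1 with the length offset without cKO 5. Leaving out 1 library gave 460 to 2818 calls over all genes, 0 to 1 members higher and 0 to 3 lower, and a difference in mitochondrial share of 0.0170 to 0.0342 percentage points. That difference was 0.00348 without cKO 1 and cKO 2 and -0.00374 without cKO 1, cKO 2 and cKO 4. Cox6a2 reversed to -0.88 with limma-voom and -0.67 with the length offset without cKO 5, and ran from -0.81 (without cKO 5) to 0.27 when 1 library was left out. The causes were not tested. Of 1041 values of 42 named genes under alternatives, 964 kept their direction and side of the threshold, 51 lost a call, 23 gained one and 3 reversed. No paired analysis was possible because the replicate numbers of the groups (1 to 6 and 7 to 12) are not shared.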
